A study of Mus musculus with 20 samples.

Results

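The genes described are 10 mouse genes commonly used as monocyte markers, chosen by name as one fixed set: Ly6c2, Chil3, Plac8, Lyz1, Lyz2, Adgre4, Adgre5, Ifitm6, Hp and Emilin2. Of the 10, 9 had a row among the 25392 genes of the deposited library tables, and Lyz2 was not analysed here. They were read in single CD45+ leukocytes that had been stained for CD45 and CD11b and sorted from eyes of C57BL/6 mice aged 8 weeks. The series holds 20 libraries of 192 wells, 4 in each of 5 groups: control retina, retina 3 days after laser lesioning, retina 7 days after laser lesioning, ciliary body and cornea. The laser libraries carry the label CNV, the usual abbreviation of choroidal neovascularization, and the ciliary body and cornea libraries carry no lesion label. Libraries of a group with the same name prefix were summed as a pair, which gave 2 sums per group. The design speaks of about 6 mice and the labels name no mouse, so the spread between pairs may be technical.

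Mouse blood monocytes fall into a classical or inflammatory kind, which carries much Ly6C and the chemokine receptor CCR2 and enters injured tissue, and a patrolling kind, which carries little Ly6C and crawls along the vessel wall. Patrolling monocytes depend on the transcription factor Nr4a1 and express Ace and Treml4. Ly6c2 encodes a GPI-anchored Ly6C protein that is also made by subsets of T cells and natural killer (NK) cells, so it marks monocytes only among cells already known to be myeloid. In the eye, microglia and border macrophages are the resident myeloid cells, and monocytes are a source of the cells that enter a laser lesion.

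The windows of 250 bases before the annotated start of the 3 genes that set the inflammatory and the patrolling side apart, Ly6c2, Chil3 and Adgre4, and of Lyz1, which had the most transcripts of the 9, are shown because these 4 genes carry the results that follow. Capitals mark AGGAAGT or its other strand ACTTCCT, letters that include the core bound by ETS factors such as PU.1, a regulator of myeloid genes. The sequences are RefSeq's for build GRCm38.p6, in the direction of transcription, from the minus strand at chr15:75111938-75112187 (Ly6c2), chr3:106167565-106167814 (Chil3) and chr10:117292869-117293118 (Lyz1) and from the plus strand at chr17:55749734-55749983 (Adgre4).
Ly6c2: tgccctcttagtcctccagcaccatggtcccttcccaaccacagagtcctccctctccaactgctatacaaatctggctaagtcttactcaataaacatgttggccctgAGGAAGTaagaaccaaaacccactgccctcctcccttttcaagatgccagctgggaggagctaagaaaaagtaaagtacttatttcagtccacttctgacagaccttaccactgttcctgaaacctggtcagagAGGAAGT
Chil3: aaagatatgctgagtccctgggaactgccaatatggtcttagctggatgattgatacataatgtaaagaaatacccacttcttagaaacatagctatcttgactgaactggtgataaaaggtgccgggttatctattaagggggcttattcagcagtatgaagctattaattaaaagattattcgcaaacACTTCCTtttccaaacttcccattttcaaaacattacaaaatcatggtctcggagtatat
Lyz1: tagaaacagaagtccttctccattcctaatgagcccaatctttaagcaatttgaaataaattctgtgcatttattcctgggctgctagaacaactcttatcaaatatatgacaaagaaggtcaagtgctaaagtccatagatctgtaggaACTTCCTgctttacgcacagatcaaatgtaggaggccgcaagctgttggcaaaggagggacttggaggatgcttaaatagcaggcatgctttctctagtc
Adgre4: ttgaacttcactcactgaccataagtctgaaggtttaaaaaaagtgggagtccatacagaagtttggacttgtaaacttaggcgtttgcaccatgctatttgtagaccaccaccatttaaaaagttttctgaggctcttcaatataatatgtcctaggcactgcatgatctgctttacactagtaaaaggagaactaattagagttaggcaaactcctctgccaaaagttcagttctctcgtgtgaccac

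Of the 9 genes, 7 had a promoter entry, and 4 of the 7 held the motif on either strand: Ly6c2, Chil3, Lyz1 and Ifitm6. The Ly6c2 window shown held 2 copies, its other window, which overlaps the one shown, held 1, and the windows of Adgre4, Plac8 and Emilin2 held none. Counted by window, 5 of the 10 windows of these genes held the motif, with both overlapping Ly6c2 windows among the 5. The same letters stood in 2525 of 32851 promoter windows of that length, or 7.69%. A match is a description of the letters only. Among transcripts, 12.6% of the stretches of 50 bases of Ly6c2 also stood in Ly6c1, 18.5% of those of Chil3 in Chil4 and 16.1% of those of Lyz1 in Lyz2. The sources used here do not give how shared reads were counted, and values of these 3 genes may include reads of their neighbours.

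Library totals ran from 371329 to 3325825 transcripts. Of 3840 wells, 1522 passed a filter of at least 1000 transcripts and at most 25% mitochondrial ones, and the authors annotated 829. Their annotation keeps monocytes in one class with lymphocytes and granulocytes, called the joint class here. Of its wells, 89 came from the table of retinal wells and 78 from that of eye compartments. It held 73 wells of ciliary body, 41 of retina at day 7, 46 at day 3, 5 of cornea and 2 of control retina. The classes come from clusters of these same cells, so levels in different classes are described without a test. Every value is in counts per 1000000 transcripts of the summed wells (CPM), which does not separate fewer cells of a type from less RNA per cell.

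Ly6c2 was higher in the joint class of ciliary body and lesioned retina than in any other class. In the joint class the pair sums were 436 and 560.1 CPM in ciliary body, 1683 and 1449 CPM at day 7, and 296 and 1189 CPM at day 3. Microglia held 6.61 and 13.1 CPM in control retina, 12.8 and 83.7 CPM at day 3 and 21.7 and 41.9 CPM at day 7. Every joint class sum of these 3 groups lay above every microglia sum, and the day 3 sums of the joint class lay on both sides of the ciliary body sums.

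Chil3 encodes a secreted chitinase-like protein, Hp encodes haptoglobin, which binds free hemoglobin, and Lyz1 encodes a lysozyme, which cuts bacterial cell walls. Chil3 stood at 373 and 90.6 CPM in the joint class of ciliary body, 23.96 and 0 CPM at day 7 and 32.8 and 53.2 CPM at day 3. Hp stood at 9.18 and 96.8 CPM in ciliary body, 11.98 and 0 CPM at day 7 and 24.6 and 113.1 CPM at day 3, and its 2 sums within a group lay far apart. Hp was at 0 in every microglia and dendritic cell sum. Lyz1 stood at 4049 and 3675.5 CPM in ciliary body, 1164 and 965 CPM at day 7 and 3920.2 and 4063 CPM at day 3. Lyz1 was not confined to the joint class: macrophages held 1924 and 1594 CPM in cornea and 1960.4 and 1085.5 CPM in ciliary body, and control microglia 211 and 174 CPM.

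Plac8, which encodes a small cysteine-rich protein of myeloid and lymphoid cells, and Ifitm6, of the interferon-induced transmembrane family, were shared with dendritic cells. Plac8 stood at 280.2 and 601 CPM in the joint class of ciliary body, 612 and 686 CPM at day 7 and 731 and 1046 CPM at day 3. Dendritic cells held 314 and 331.5 CPM of Plac8 at day 7 and 569.9 and 499 CPM at day 3. Ifitm6 stood at 59.65 and 112 CPM in the joint class of ciliary body, 41.9 and 12.5 CPM at day 7 and 180.5 and 146 CPM at day 3. In dendritic cells Ifitm6 stood at 86.2 and 116 CPM at day 7 and 146 and 176 CPM at day 3, so at day 7 both dendritic sums lay above both joint class sums.

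Adgre4 and Adgre5 encode adhesion receptors of the G protein-coupled kind, and Adgre5, also known as CD97, is found on most leukocytes. Adgre4 stood at 50.5 and 99.9 CPM in the joint class of ciliary body, 5.99 and 24.9 CPM at day 7 and 90.2 and 6.65 CPM at day 3, so that a single pair made the day 3 level. It had 0 transcripts in control microglia and in dendritic cells at day 3. Adgre5 stood at 404 and 403 CPM in ciliary body, 149.7 and 187 CPM at day 7 and 254 and 273 CPM at day 3. Emilin2, an extracellular matrix glycoprotein, stood at 110.1 and 103 CPM in ciliary body, 17.96 and 0 CPM at day 7 and 254 and 193 CPM at day 3.

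**Figure D1:**
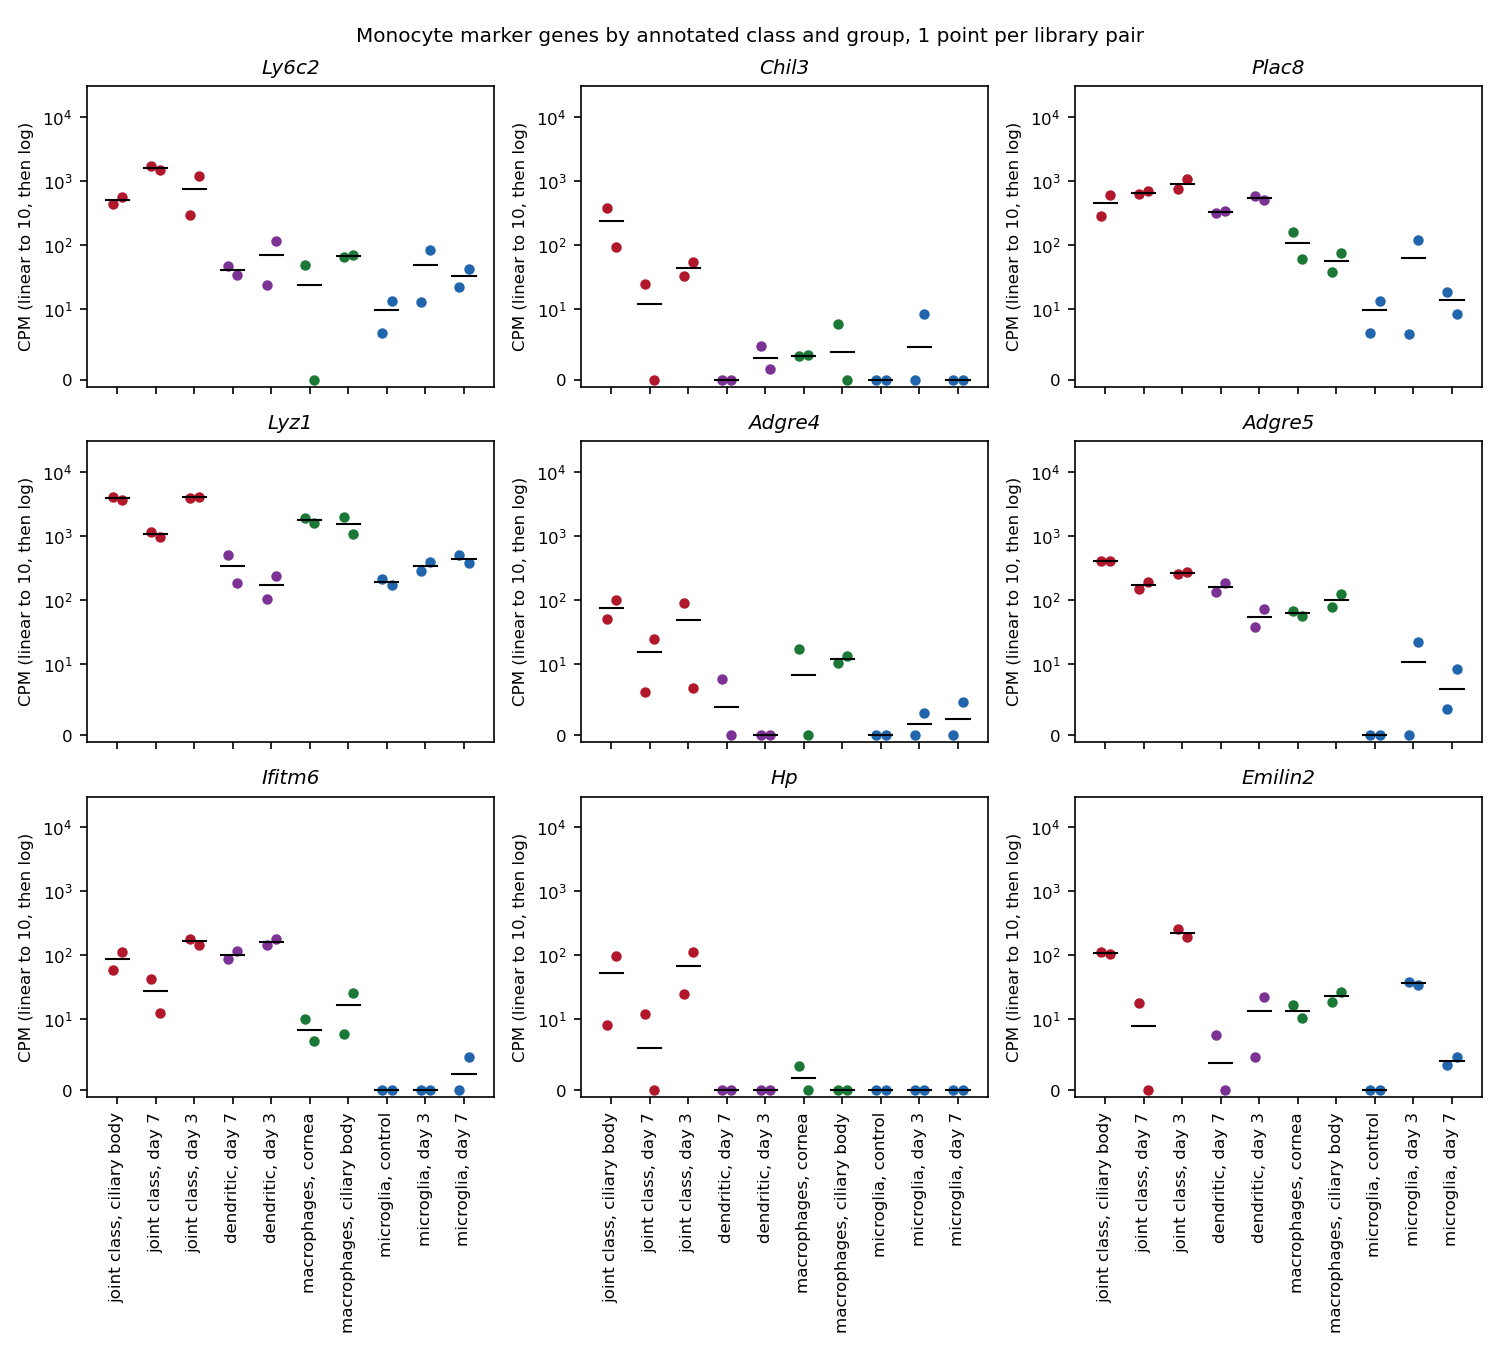
CPM of the 9 monocyte marker genes in each annotated class and group, on an axis that is linear to 10 and logarithmic above; each point is 1 library pair and each line the mean of the pairs. The 6 Ly6c2 sums of the joint class in ciliary body and lesioned retina lie between 296 and 1683 CPM, above all other classes, while Lyz1 is also high in macrophages and Plac8 and Ifitm6 in dendritic cells.

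Within the joint class the members did not lie in the same wells. Wells were sorted by 2 facts, whether they held at least 10 Lyz1 transcripts and whether they held at least 2 transcripts of T, NK and B cell markers such as Cd3e, Nkg7 and Cd79a. At day 7, 30 of 41 wells had lymphocyte markers and fewer than 10 Lyz1 transcripts, and these wells held 76.8% of the Ly6c2 transcripts of the class. At day 3 such wells were 19 of 46 and held 73.9% of the Ly6c2 transcripts, and in ciliary body they were 34 of 73 and held 41.6%. The day 3 share rested on the P2 pair: such wells held 87.1% of Ly6c2 transcripts there and 8.33% in the P1 pair. At day 7 they held 67.85% in the P1 pair and 98.3% in the P2 pair, and in ciliary body 56.9% in the P3 pair and 33.5% in the P4 pair. In both day 7 pairs and in the P2 pair of day 3, most Ly6c2 transcripts of the class thus lay in wells with lymphocyte RNA, and in the P1 pair of day 3 they did not.

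The wells rich in Lyz1 and with fewer than 2 lymphocyte marker transcripts were 23 in ciliary body, 4 at day 7 and 8 at day 3. They held all Chil3 and all Adgre4 transcripts of the class at day 7 and at day 3, and in ciliary body 89.1% of the Chil3 and 83.7% of the Adgre4 transcripts. Ly6c2 was present in them too, at 504 CPM in ciliary body, 3304 CPM at day 7 and 543 CPM at day 3. Their Lyz1 level was 8598 CPM in ciliary body, 15012 CPM at day 7 and 13070.2 CPM at day 3. The numbers of these wells at day 7 and day 3 are small, and their levels carry no replicate error.

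Some of the authors' clusters within the joint class were mostly of one kind, and others held both. In the clustering of the retinal wells, cluster 8 held 9 wells with Lyz1 at 16601 CPM, Emilin2 at 659.5 CPM, the chemokine receptor Ccr2 at 1413 CPM and no T or NK cell marker transcript. Cluster 12 held 20 wells with Ly6c2 at 1908 CPM, Lyz1 at 25.5 CPM, T cell markers at 2149 CPM and NK cell markers at 2127 CPM. In the clustering of eye compartments, cluster 11 held 20 wells with Lyz1 at 9404 CPM, Adgre4 at 210.5 CPM and Ace at 249 CPM, and cluster 4 held 10 wells with NK cell markers at 7856 CPM and Ly6c2 at 1062 CPM. Retinal cluster 2, the largest, was mixed: of its 37 wells, 24 had lymphocyte markers and fewer than 10 Lyz1 transcripts, 3 were rich in Lyz1 with fewer than 2 lymphocyte marker transcripts and 10 were neither. It held 79.0% of the Ly6c2 transcripts of the class at day 3 and 21.2% at day 7. Eye clusters 12 and 17 also held both kinds, and of the 56 Chil3 transcripts of the 15 wells of cluster 17, 45 came from a single well. In the retina the authors also deposited a call by gene signature: of the joint class it named 2 wells monocytes and 32 lymphocytes at day 7, and 11 wells monocytes and 15 lymphocytes at day 3.

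**Figure D2:**
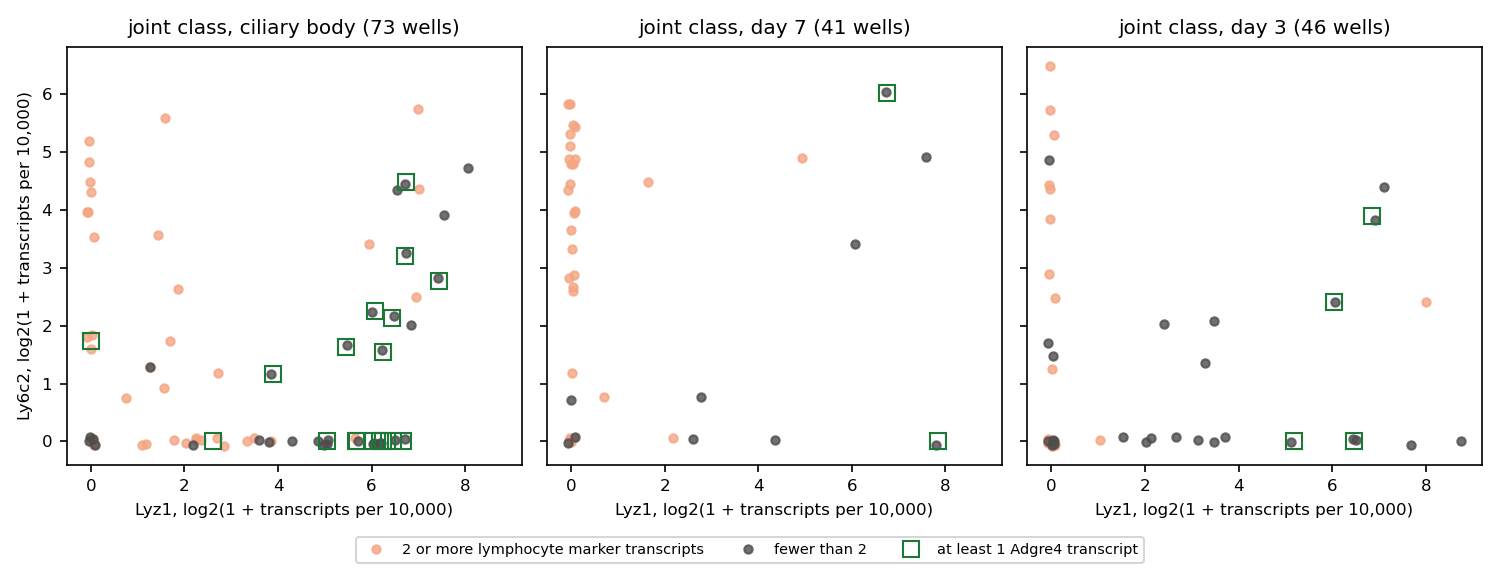
Ly6c2 against Lyz1 in single wells of the joint class, as log2 of 1 plus transcripts per 10000 in the well, for ciliary body, day 7 and day 3; pale points are wells with 2 or more lymphocyte marker transcripts, dark points wells with fewer, and green squares wells with Adgre4. Most wells with Ly6c2 and no Lyz1 are pale at day 7 and day 3, and every Adgre4 well at those times lies in the part of the plot rich in Lyz1.

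To follow the members without the annotation, all passing wells of the retina were summed: 71 and 122 wells came from control, 121 and 179 wells from day 3 and 160 and 152 wells from day 7. Ly6c2 stood at 8.98 and 6.58 CPM in control retina, 67.5 and 244 CPM at day 3 and 341 and 222 CPM at day 7. Plac8 stood at 1.496 and 29.6 CPM in control, 289.5 and 410.3 CPM at day 3 and 142 and 118.7 CPM at day 7. Lyz1 stood at 62.8 and 105 CPM in control, 821 and 701 CPM at day 3 and 539.6 and 246 CPM at day 7. Each of the 3 genes was lower in both control pairs than in every lesion pair. How many of all genes separate in this way was not counted.

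Adgre5, Ifitm6 and Emilin2 were near or at 0 in control and highest at day 3. Adgre5 stood at 2.99 and 1.64 CPM in control, 58.4 and 82.0 CPM at day 3 and 48.4 and 38.9 CPM at day 7. Ifitm6 had 0 transcripts in control, 71.3 and 101 CPM at day 3 and 18.9 and 9.72 CPM at day 7. Emilin2 had 0 transcripts in control, 57.1 and 48.9 CPM at day 3 and 6.31 and 2.92 CPM at day 7. Hp, Chil3 and Adgre4 were at most 22.3 CPM in every pair and did not pass the filter on low counts, which left 6 of the 9 genes tested.

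At day 3 against control, 6 of the 6 tested members were higher by edgeR's quasi-likelihood test with Benjamini-Hochberg adjustment over 9334 genes, of which 22.9% were called and 12.7% called higher. Of the 6, Lyz1 alone reached the level of the filter, 11.6 CPM, in both control pairs. The other 5 passed only through the lesion groups, so the count over the tested members is no support for the set. The log2 fold change was 4.33 ± 0.68 (SE, adjusted p = 0.00247) for Ly6c2, 4.53 ± 0.74 (adjusted p = 0.00316) for Plac8 and 3.21 ± 0.47 (adjusted p = 0.00203) for Lyz1. Leaving out 1 control pair ended the call of Ly6c2, with an adjusted p of 0.0816 without P1 and 0.0577 without P2. Adgre5, with 159 transcripts at day 3 and 3 in control, was 31.3-fold higher with a counting interval of 10.5 to 153 (adjusted p = 0.000477). Ifitm6 was at least 38.6-fold higher (adjusted p = 0.000504) and Emilin2 at least 22.0-fold higher (adjusted p = 0.000824), both against a floor of 3 transcripts over the control wells. Hp, with 35 transcripts at day 3 and 0 in control, was at least 6.89-fold higher and was not tested.

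At day 7 against control, 3 of the 6 were higher, where 1.21% of genes were called. All 3 had passed the filter only through the lesion groups, and nothing is read from their count. Ly6c2 had a log2 fold change of 5.10 ± 0.68 (edgeR, adjusted p = 0.00638), Adgre5 was 18.5-fold higher with a counting interval of 6.12 to 91.5 (adjusted p = 0.00638) and Ifitm6 at least 6.02-fold higher (adjusted p = 0.0437). Without the P1 or the P2 pair of control the adjusted p of Ly6c2 was 0.221 and 0.127, and without the P1 pair of day 7 or of control that of Ifitm6 was 0.174 and 0.104. Lyz1, at 2.18 ± 0.46 (adjusted p = 0.0523), and Plac8, at 3.03 ± 0.73 (adjusted p = 0.0927), missed the threshold. Emilin2, with 9 transcripts at day 7 and 0 in control, also missed it (adjusted p = 0.205).

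At day 7 against day 3, 2 of the 6 fell, where 5.58% of genes were called and 2.29% called lower. These 2, Emilin2 and Ifitm6, reached the level of the filter, 11.6 CPM, in both pairs only at day 3. They passed through day 3, where they were high, and nothing is read from their count. Emilin2 fell by 3.56 ± 0.46 on the log2 scale (edgeR, adjusted p = 0.0162) and Ifitm6 fell by 2.67 ± 0.41 (adjusted p = 0.0283). Without the P2 pair of day 3 the adjusted p was 0.0637 for Emilin2 and 0.0855 for Ifitm6, and without the P2 pair of day 7 it was 0.197 and 0.249, so that no member was called in either case. Ly6c2 had a log2 fold change of 0.77 ± 0.49 (adjusted p = 0.39), and its day 7 and day 3 pairs overlapped.

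**Figure D3:**
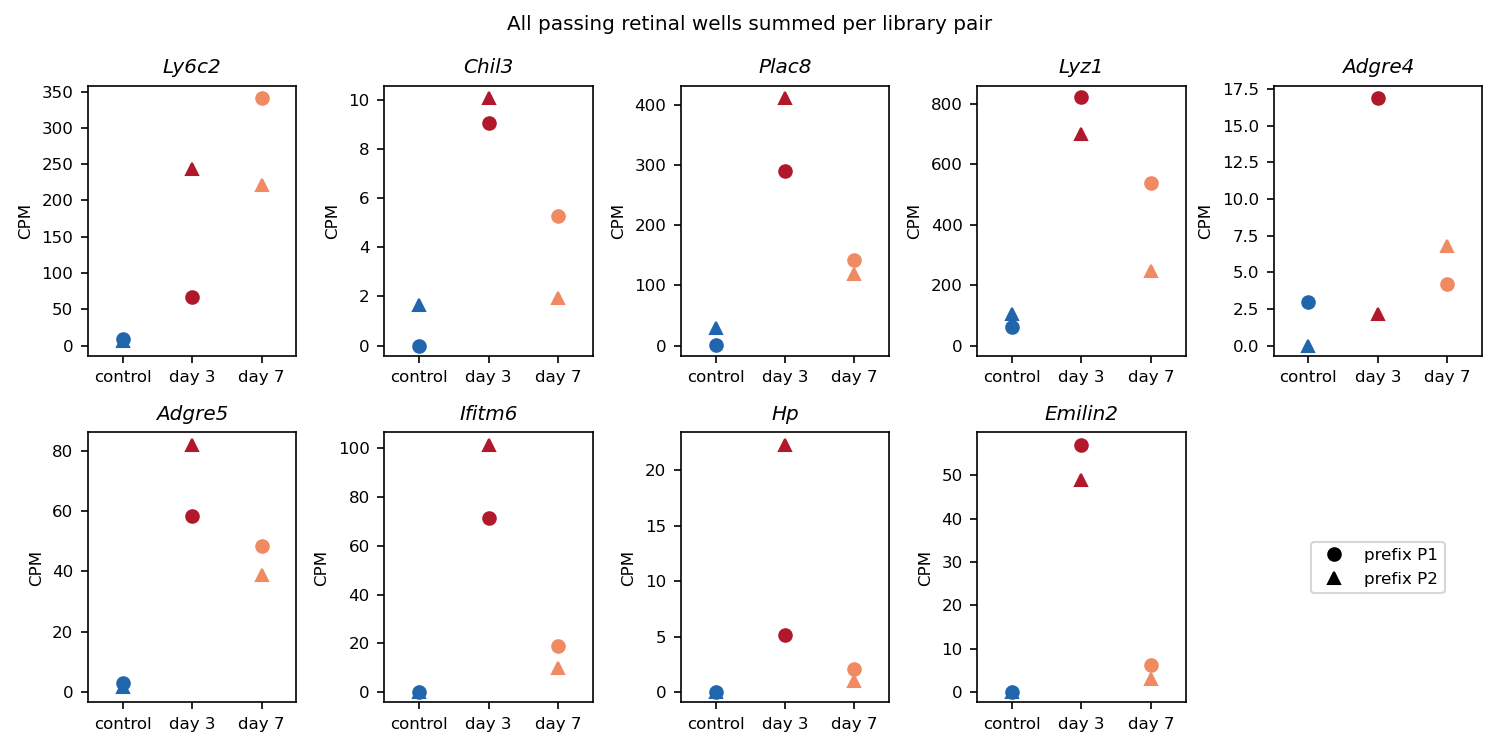
CPM of the 9 genes in all passing retinal wells for control, day 3 and day 7, on linear axes; circles are pairs with prefix P1 and triangles pairs with prefix P2. Ifitm6, Emilin2 and Plac8 are highest in both day 3 pairs, while the day 3 and day 7 pairs of Ly6c2 overlap.

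Other monocyte genes were also called in these sums. Of a list of inflammatory monocyte genes, 6 of 12 tested were higher at day 3 than in control, and of a list of patrolling monocyte genes 8 of 14 were, where 12.7% of all genes were called higher. Of the 12 and the 14, only 4 and 5 reached the level of the filter in both control pairs, so these counts are no support for the lists either. S100a4, a calcium-binding protein, changed by 6.25 ± 0.62 on the log2 scale (edgeR, adjusted p = 0.000366) and Fn1, fibronectin, by 5.41 ± 0.58 (adjusted p = 0.000477). Ccr2, with 474 transcripts at day 3 and 2 in control, had a ratio of 139.9 with a counting interval of 38.5 to 1159. Itgax, an integrin also high on dendritic cells, had 646 transcripts at day 3 and 3 in control, a ratio of 127 with an interval of 43.3 to 618. At day 7 against control, 3 of 12 inflammatory and 3 of 14 patrolling genes were higher, with the same limit.

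Markers of other cells differed between the same groups. Dendritic cell markers had 8 of 12 tested genes higher at day 3 than in control, T cell markers 3 of 7 and NK cell markers 2 of 5, while 6 of 10 microglia markers were lower. Of these, 4 of the dendritic cell markers, 0 of the T and NK cell markers and all 10 of the microglia markers reached the level of the filter in both control pairs. The 8 photoreceptor markers were all lower, and their sum was 36928 ± 8986 CPM in control, 5160 ± 2552 CPM at day 3 and 23344 ± 9196 CPM at day 7 (SD, n = 2 pairs). At day 7 against day 3, Cd8a changed by 3.19 ± 0.42 (edgeR, adjusted p = 0.0167), Cd3d by 3.54 ± 0.66 (adjusted p = 0.0309) and Nkg7 by 2.38 ± 0.53 (adjusted p = 0.0358). Over passing and annotated wells of day 3, annotated dendritic cells held 71.5% of the Ifitm6 and 56.4% of the Plac8 transcripts. The joint class held 21.3% and 30.65% of them. Of Ly6c2, Lyz1, Adgre5 and Emilin2 the joint class held the largest share at day 3, from 43.9 to 66.6%. At day 7 dendritic cells held 62.1% of Ifitm6 and 22.05% of Plac8. The part of these other cells in the members' results was not tested.

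Within the joint class, 2 of the 9 tested members were lower at day 7 than at day 3 and 0 were higher, where 0.222% of genes were called and 0.111% called lower. Of the 2, Emilin2 lay below the level of the filter, 63.0 CPM, in both day 7 pairs. It passed through day 3 and ciliary body, so nothing is read from the count. Lyz1 fell by 1.92 ± 0.29 on the log2 scale (edgeR, adjusted p = 0.0485). Emilin2, with 3 transcripts at day 7 and 60 at day 3, had a ratio of 0.0551 with a counting interval of 0.0111 to 0.169 (edgeR, adjusted p = 0.0489). T cell markers summed to 1222 and 2082 CPM in the same sums at day 7, and to 254 and 445.5 CPM at day 3. In wells with fewer than 2 lymphocyte marker transcripts no member was called, and the log2 fold change of Lyz1 was -0.58 (edgeR, adjusted p = 0.827) and that of Emilin2 -3.31 (adjusted p = 0.524). Without the P1 pair or the P2 pair of day 7 no member was called either, with an adjusted p of 0.16 and 0.282 for Lyz1 and 0.0752 and 0.0647 for Emilin2, and without the P1 pair of day 3 that of Emilin2 was 0.105.

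Ly6c2 in the joint class had a log2 fold change of 1.01 ± 0.55 at day 7 against day 3 (edgeR, adjusted p = 0.54). Its value depended on the P2 pair of day 3: without that pair it was 2.43 (adjusted p = 0.0384), and without the P1 pair 0.28 (adjusted p = 0.94). The 2 pairs of day 3 themselves lay at 296 and 1189 CPM. The single well with the most Ly6c2, 63 transcripts, belonged to the P2 pair of day 3 and held 5.74% of all annotated Ly6c2 transcripts.

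The joint class of the ciliary body was set against that of the lesioned retina, with day 7 and day 3 weighted equally, and 3 of the 9 tested members were higher, where 5.96% of genes were called and 4.78% called higher. Chil3 changed by 3.18 ± 0.63 on the log2 scale (edgeR, adjusted p = 0.0153), Adgre5 by 1.16 ± 0.29 (adjusted p = 0.0431) and Lyz1 by 1.11 ± 0.23 (adjusted p = 0.0225). The ciliary body and lesion sums of Lyz1 overlapped. Of 138 annotated Chil3 transcripts, 45 came from a single ciliary body well, and without it the P3 sum was 172.9 CPM. Chil3 lay below the level of the filter, 63.0 CPM, in all 4 lesion sums. It passed through ciliary body, where it was high, so nothing is read from the count. Tissue, lesion and library prefix cannot be told apart in this comparison.

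The 3 calls rested on few sums. In wells with fewer than 2 lymphocyte marker transcripts, the log2 fold change was 2.72 for Chil3 (edgeR, adjusted p = 0.104), 1.66 for Adgre5 (adjusted p = 0.0586) and 0.54 for Lyz1 (adjusted p = 0.546), so that the calls were lost while the value of Adgre5 was larger and that of Lyz1 smaller. Without the P3 pair of ciliary body the adjusted p of Chil3 was 0.066, and without the P1 pair of day 3 it was 0.0635. Without the P4 pair of ciliary body, the P1 pair of day 7 or the P2 pair of day 7, that of Lyz1 was 0.05925, 0.0743 and 0.11. That of Adgre5 was above the threshold without any of the 4 lesion pairs or the P4 pair of ciliary body, and lay between 0.0629 and 0.22. DESeq2 with all pairs did not call Adgre5 either, at a log2 fold change of 1.17 (adjusted p = 0.124).

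Of 12 tested patrolling monocyte genes, 5 were higher in the same comparison, where 4.78% of all genes were called higher. The median log2 fold change was 1.78 over the 12 and 0 over all genes. Of the 12, only 9 reached the level of the filter in at least 2 lesion sums, and Hes1 was not among them. The count and the median are therefore no support for the list. Nr4a1 changed by 4.31 ± 0.62 (edgeR, adjusted p = 0.00283), Hes1, a transcription factor acting downstream of Notch, by 3.03 ± 0.58 (adjusted p = 0.0117) and Cebpb, a transcription factor of myeloid cells, by 2.34 ± 0.43 (adjusted p = 0.0106). Of 11 tested inflammatory monocyte genes 2 were higher, Thbs1 by 3.75 ± 0.70 (adjusted p = 0.0111) and Cd14 by 3.21 ± 0.70 (adjusted p = 0.0249). Cd8a, with 1 transcript in ciliary body and 108 in the lesioned retina, was lower, and so were 5 of 8 photoreceptor markers. Of 3 tested macrophage markers, the complement gene C1qa was higher by 2.68 ± 0.40 (edgeR, adjusted p = 0.00309), and C1qb and C1qc had log2 fold changes of 1.0 (adjusted p = 0.0953) and 1.03 (adjusted p = 0.13). The part of these other cells in the result was not tested.

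Within microglia, Ly6c2 and Lyz1 were the 2 members that passed the filter, and edgeR and DESeq2 called 0 of them in the 3 comparisons of the retina, where 22.3% of genes were called at day 3 against control, 0.999% at day 7 against control and 9.07% at day 7 against day 3. Lyz1 stood at 211 and 174 CPM in control, 287.5 and 397 CPM at day 3 and 508 and 377 CPM at day 7, with a log2 fold change of 0.99 ± 0.27 at day 7 against control (unadjusted p = 0.00177, adjusted p = 0.102). Emilin2 had 0 transcripts in control microglia and 17 at day 3, at 38.3 and 34.1 CPM, which was at least 5.40-fold higher, and it was not tested. The unadjusted p was below 0.05 for 1 of the 2 genes in each comparison. Emilin2 at day 3 was therefore present outside the joint class too.

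Within dendritic cells, 0 of 4 tested members were called by edgeR or by DESeq2 at day 7 against day 3, where 0.126% of genes were called. Plac8 had the log2 fold change -0.67 ± 0.25 (edgeR, unadjusted p = 0.0256, adjusted p = 0.433). Adgre5 stood at 133.2 and 182.2 CPM at day 7 and 37.6 and 72.1 CPM at day 3 (log2 fold change 1.35 ± 0.43, unadjusted p = 0.0133, edgeR adjusted p = 0.362). In 2 of the 4 tests the unadjusted p was below 0.05.

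Within macrophages, edgeR and DESeq2 called 0 of 4 tested members in cornea against ciliary body, where 5.87% of genes were called. Of the 4, 1 had an unadjusted p below 0.05. Lyz1 had the log2 fold change 0.12 ± 0.36 (edgeR, adjusted p = 0.941). Adgre5 stood at 67.8 and 55.2 CPM in cornea and 76.2 and 123 CPM in ciliary body (log2 fold change -0.80 ± 0.38, unadjusted p = 0.0453, edgeR adjusted p = 0.273). Ly6c2 stood at 47.5 and 0 CPM in corneal macrophages, and at 63.0 and 69.3 CPM in those of the ciliary body, a difference with adjusted p = 0.562.

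For the comparison of patrolling with inflammatory monocytes in single wells, joint class wells of ciliary body and lesioned retina were split by the members themselves: wells with at least 1 Adgre4 transcript, and wells with Ly6c2 or Chil3 and no Adgre4. Ciliary body had 18 wells of the first kind and 26 of the second, day 7 had 2 and 28, and day 3 had 4 and 18. Adgre4 wells were 24.7% of the joint class in ciliary body (Wilson 95% interval 16.2 to 35.6%), 4.88% at day 7 (1.35 to 16.1%) and 8.70% at day 3 (3.43 to 20.3%), intervals that cover counting error only. The 2 kinds differed in other ways: of the second kind, lymphocyte markers stood in 21 of 26 wells of ciliary body, 24 of 28 at day 7 and 10 of 18 at day 3.

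The inflammatory and patrolling members were not exclusive of each other. Of the 24 Adgre4 wells, 12 also held Ly6c2 and 11 Chil3, while 18 held Ace, 15 Treml4 and 8 Cd300e, a receptor of patrolling monocytes. Of the 72 Ly6c2 or Chil3 wells, 2 held Ace, 3 held Treml4 and 0 held Cd300e, which allows up to 4.17% of such wells to hold a read transcript and sets no limit on expression. At least 10 Lyz1 transcripts stood in only 8 of the 26 in ciliary body, 3 of the 28 at day 7 and 3 of the 18 at day 3. Most of the 72 had lymphocyte markers, so these counts are mostly counts over wells with lymphocyte RNA. The median total was 7996 transcripts in Adgre4 wells and 5782 in Ly6c2 or Chil3 wells, so the Adgre4 wells were also the deeper ones.

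Single wells show the range. A ciliary body well of the P4 pair with 7287 transcripts held 5 of Adgre4, 4 of Treml4 and 11 of Cd300e, and none of Ly6c2 or Chil3. Another of the same pair, with 12091 transcripts, held 3 of Adgre4 beside 10 each of Ly6c2, Chil3 and Ccr2 and 1 of Ace. A day 3 well of the P2 pair with 12251 transcripts held 1 of Adgre4, 17 of Ly6c2 and 38 of Ccr2 and none of Ace. Adgre4 wells thus ranged from ones with Cd300e and no Ly6c2 to ones with more Ly6c2 and Ccr2 than Adgre4.

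Over all groups 27 joint class wells held Adgre4, and 10 of them held at least 2 Ly6c2 transcripts. In these 10 wells Ccr2 stood at 915 CPM, Plac8 at 2219 CPM and Ace at 182.6 CPM. Of the 85 Ccr2 transcripts 38 came from the single day 3 well of the P2 pair, without which Ccr2 stood at 581.5 CPM, and without the well with the most Ace, Ace stood at 82.2 CPM. In the other 17 wells, Ccr2 stood at 160.3 CPM, Plac8 at 488.5 CPM and Ace at 291.5 CPM. The median total was 9079 transcripts in the 10 wells and 5626 in the 17, and no test was made of a split by Ly6c2.

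Adgre4 wells were tested against Ly6c2 or Chil3 wells as sums within the 3 library pairs that had at least 3 wells of each kind, with the pair as a block. The sums held 5, 13 and 3 Adgre4 wells and 12, 14 and 6 Ly6c2 or Chil3 wells, from both pairs of ciliary body and the P1 pair of day 3. Of 5 tested members beyond the 3 that chose the wells, edgeR and DESeq2 called 0, where edgeR called 1.8% of 1055 genes. Plac8 had the log2 fold change 0.94 ± 0.35 (unadjusted p = 0.0125, adjusted p = 0.222), and Ifitm6, Adgre5, Lyz1 and Emilin2 lay between 0.74 and 0.08. The tested members were thus present on both sides in these sums.

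Of 19 genes called by edgeR, 11 were higher in Adgre4 wells, and 5 of 11 tested patrolling monocyte genes were among these: Ace, Treml4, Nr4a1, Hes1 and Pou2f2. In either direction 1.8% of 1055 genes were called. Ace, Treml4 and Hes1 had 3, 2 and 5 transcripts in the Ly6c2 or Chil3 wells, below the filter's minimum count of 10. These genes passed through the Adgre4 wells, where they were high, so the count is no support for the list. Ace, angiotensin-converting enzyme, stood at 289, 208 and 529 CPM in Adgre4 wells and at 0, 18.7 and 29.8 CPM in Ly6c2 or Chil3 wells, a 19.6-fold ratio of 55 to 3 transcripts with a counting interval of 6.35 to 97.7 (adjusted p = 0.00128). Nr4a1 stood at 1527, 1745 and 453 CPM in Adgre4 wells and at 254, 647 and 0 CPM in Ly6c2 or Chil3 wells, with a log2 fold change of 2.16 ± 0.43 (adjusted p = 0.0062). Fos and Egr1, immediate early genes as Nr4a1 is, were also among the 11 genes. Pou2f2, a transcription factor of the POU family, had the log2 fold change 1.87 ± 0.37 (adjusted p = 0.0062). Ace, Pou2f2, Treml4 and Hes1 were higher in Adgre4 wells in all 3 pairs without overlap between the kinds, as were other called genes. How many of all 1055 genes separate in this way was not counted, and nothing is read from it.

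Of 11 tested inflammatory monocyte genes edgeR and DESeq2 called 0, 4 had an unadjusted p below 0.05 in edgeR, and Ccr2 had the log2 fold change -0.88 ± 0.38 (edgeR, adjusted p = 0.344). Of the 8 genes lower in Adgre4 wells, 2 were NK cell markers, Gzmb, with 2 transcripts in Adgre4 wells and 77 in the others, and Nkg7, with 3 and 81. Both encode proteins of cytotoxic granules. Gimap3, with 1 transcript in Adgre4 wells and 31 in the others, Thy1, with 2 and 37, and Trbc1, with 3 and 36, were also among the 8. T, NK and B cell markers together stood at 156 ± 137 CPM in Adgre4 wells and 2319 ± 2317 CPM in the others (SD, n = 3 pairs). The calls were sensitive to the sums used: without the P4 pair of ciliary body 0 genes were called and without the block 0. In wells with fewer than 2 lymphocyte marker transcripts edgeR called 3, among them Nr4a1 (adjusted p = 0.00464) and Pou2f2 (adjusted p = 0.0095). Ace was not called there (adjusted p = 0.129), at a log2 fold change of 4.62 beside 4.19 with all wells.

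**Figure D4:**
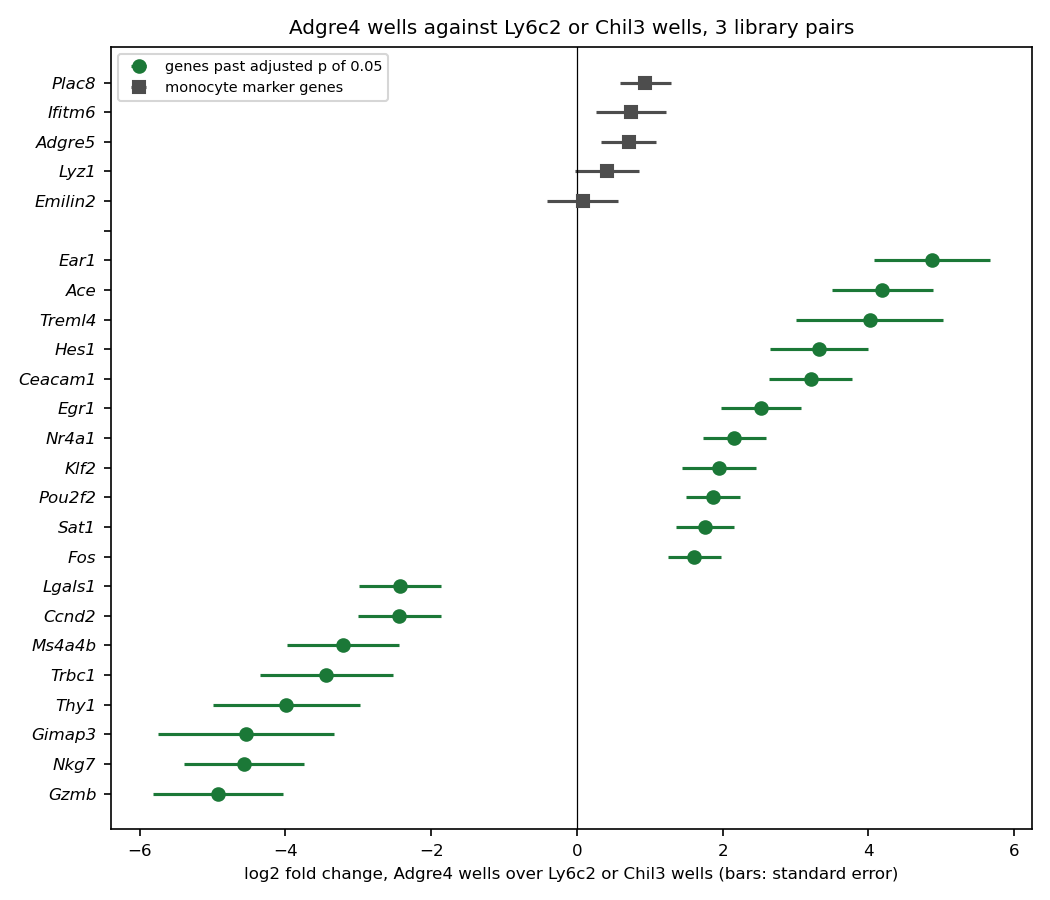
Log2 fold change of Adgre4 wells over Ly6c2 or Chil3 wells in 3 library pairs, with standard errors, for the 19 genes past an adjusted p of 0.05 (green circles) and the 5 tested monocyte marker genes (grey squares). Ace, Treml4 and Ear1 lie above 4 and rest on 3 or fewer transcripts in the Ly6c2 or Chil3 wells, and the marker genes lie between 0.08 and 0.94.

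To compare shares of wells at equal depth, each passing well was thinned to 1000 transcripts, which left none out. Wells with Ly6c2 or Chil3 were 4.88, 3.33, 2.27 and 1.28% of the 4 libraries of control, 3.57, 7.69, 20 and 15.1% of those of day 3, and 16.7, 5.68, 2.82 and 22.2% of those of day 7. They were 10.4, 18.4, 7.79 and 17.05% in ciliary body and 0, 4.065, 0 and 1.875% in cornea. Of the 455 passing corneal wells, 330 had at least 10 transcripts of epithelial keratins, so that the corneal shares are mostly shares of wells with epithelial RNA. Ciliary body libraries did not overlap with cornea libraries, while the libraries of day 3 and day 7 each overlapped with control.

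The mean share was 13.4 ± 5.11% in ciliary body and 1.49 ± 1.93% in cornea (SD, n = 4 libraries; exact permutation test, two-sided, p = 0.0286, the smallest that 4 against 4 allows, adjusted p = 0.152 over 8 tests). The 4 libraries of a group form 2 pairs by name prefix, and if libraries of a pair are not independent these p-values are too small, since 2 pairs against 2 allow none below 0.333. Without the keratin wells, which left 9 to 50 wells in a corneal library, the corneal mean was 1.5 ± 3.0% for Ly6c2 or Chil3 and 0.5 ± 1.0% for Adgre4, each with an exact p of 0.0286 against ciliary body (adjusted p = 0.114). It was 2.94 ± 1.54% in control, 11.6 ± 7.37% at day 3 and 11.9 ± 9.14% at day 7, with an exact p against control of 0.0571 for day 3 (adjusted p = 0.152) and 0.0857 for day 7 (adjusted p = 0.171). Wells with Adgre4 were 3.38 ± 0.945% in ciliary body and 0.61 ± 1.22% in cornea (exact p = 0.0571, adjusted p = 0.152). None of the 8 tests passed after adjustment. Without thinning, the mean shares of Ly6c2 or Chil3 were 4.44% in control, 25.5% at day 3 and 22.8% at day 7, and 35.9% in ciliary body and 2.998% in cornea.

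Wells that should lack these genes gave a background at the same depth. Thinned to 1000 transcripts, Ly6c2 or Chil3 stood in 1.79% of the passing control microglia, and in 1.52% of the 330 corneal keratin wells. Without thinning these shares were 3.57%, at a median total of 3454 transcripts, and 2.73%, at a median of 10282. Adgre4 stood, thinned, in 0.606% of the keratin wells and in none of the microglia, which allows up to 2.68% of them to hold a transcript. The corneal mean for Ly6c2 or Chil3 was below both background values, and the control libraries lay on both sides of them. The 330 keratin wells are part of the 455 passing corneal wells, and the 112 microglia part of the 193 of control. Nearness to this background was thus largely set in advance, and nothing is concluded from it. The Adgre4 shares outside the ciliary body rested on 1 to 3 wells a group, and no order is read from them.

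**Figure D5:**
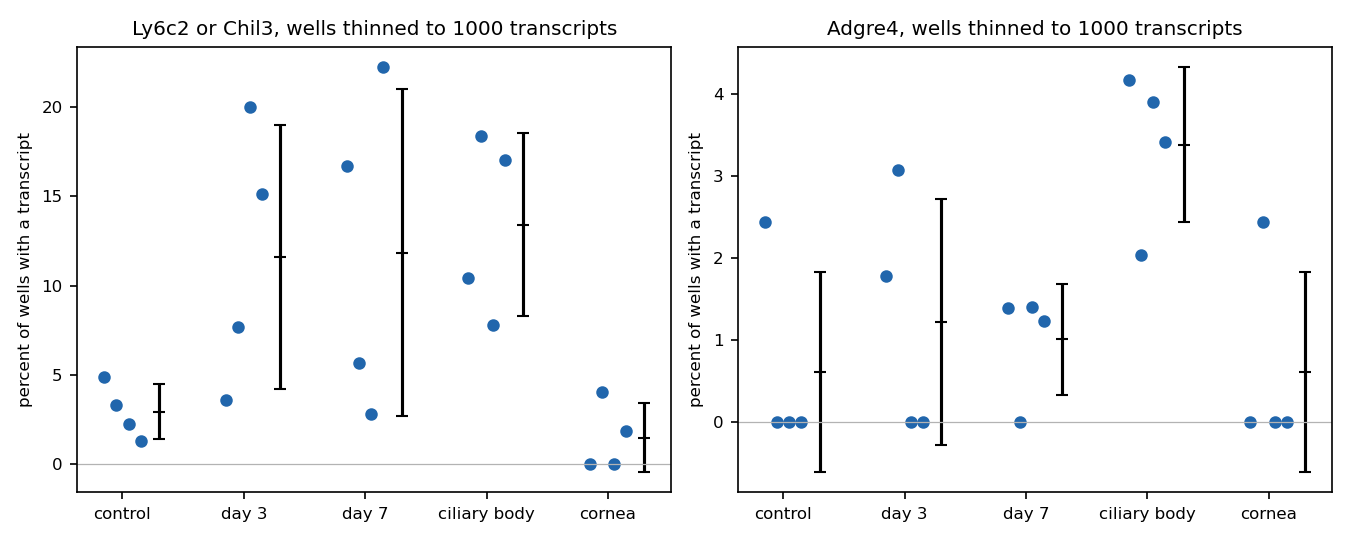
Percent of passing wells, thinned to 1000 transcripts, that held Ly6c2 or Chil3 (left) or Adgre4 (right); each point is 1 library, and the bars give the mean and SD of 4 libraries. Ciliary body libraries lie between 7.79 and 18.4% for Ly6c2 or Chil3, and those of cornea between 0 and 4.065%.

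Across 21 sums of a class, group and library pair, the gene whose level followed Ly6c2 most closely was Ptprcap, with Pearson r of 0.927 between log2 values of CPM plus 10, among 3248 genes. Ms4a4b (0.905), AW112010 (0.903) and Gimap4 (0.9) were also among the closest. For Adgre4 the closest were Ace (0.897), Ear1 (0.823), Serpinb6b (0.781), Lyz1 (0.778) and Vegfa (0.764). For Lyz1, added after its values were seen because Lyz2 was not analysed here, they were Clec4a1 (0.9), Cd44 (0.885), Gstm1 (0.877), Cd93 (0.865) and Cd300ld (0.842). Among the members, Ly6c2 had an r of 0.599 with Lyz1 and 0.588 with Adgre4, below its 0.732 with Adgre5 and 0.725 with Plac8. The sums share libraries and classes, so these are descriptions of the 21 sums.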

How the data were processed

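Single CD45+ cells were profiled with mCEL-Seq2. The library tables and the tables of annotated wells hold, as the authors deposited them, estimated counts, which need not be whole numbers; they were summed over wells and rounded to whole numbers for the tests. Reads were aligned with BWA 0.6.2-r126, per the submitters' processing notes; the sources used here give no build, annotation or counting rule. The deposited annotation gave each well's class and cluster, and wells were matched to libraries by ID. Passing wells had at least 1000 transcripts and at most 25% mitochondrial ones. Sums per library pair were tested with edgeR 4.0.16 (quasi-likelihood, TMM factors, filterByExpr, R 4.3.3), with Benjamini-Hochberg adjustment over all genes at 0.05. DESeq2 1.42.0 was an alternative. Shares were tested by exact permutation over libraries with scipy 1.17.1. The edgeR step was tested on simulated data. The members and the gene lists were chosen with earlier results of these data known. Named were all members, up to 4 genes of each list with the lowest adjusted p, the 5 genes most correlated with a member among those reaching 100 CPM, and, for Adgre4 wells, the called genes of 50 CPM or more with the 5 highest and 5 lowest fold changes. Beyond this rule, marker genes counted in single wells, Treml4, Ear1, Fos and Egr1 and the correlates of Lyz1 were named after their values were seen. Intervals cover counting error only. The lowest total of a library was 371329 transcripts and the highest 3325825. Lyz2 was not analysed here. Of the genes most correlated with Ly6c2, 1 is not reported here.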

Additional observations from a re-analysis of the deposited data

Results flagged for a closer look

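In 55 groups of 4 libraries the highest or lowest value was set against the others, and 8 stood apart by Dixon's 95% limit. Its rate of about 1 in 20 is meant for continuous values and does not hold for counts near 0. Where the other 3 libraries are at 0, a single transcript is enough to stand apart, so nothing is read from the number of flags. In passing control wells Adgre4 had 2 transcripts in all and Chil3 had 1. Hp in retina at day 3 was 51.1 CPM in 1 library of the P2 pair and 4.20 to 6.78 CPM in the other 3. Adgre4 in control retina was 3.78 CPM in a P1 library and 0 in the other 3. Chil3 in control retina was 4.25 CPM in a P2 library and 0 in the other 3, and in cornea 3.86 CPM in a P2 library and at most 0.575 CPM in the other 3. Ifitm6 in cornea was 4.60 CPM in a P2 library and at most 0.729 CPM in the other 3. The thinned share of wells with Adgre4 was 2.44% in 1 library of control retina and in 1 of cornea, with 0 in the others, and it was 0 in 1 library of day 7 and 1.24 to 1.41% in the other 3.

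Plac8 was also read in 330 unannotated corneal wells with epithelial keratins, whose Plac8 entered no comparison, where it stood at 666 CPM, in 82.1% of the wells and at 996, 905, 563 and 562 CPM in the 4 libraries. These wells held 98.8% of the corneal Plac8 transcripts together with the other unannotated wells.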

How the results depend on the processing

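The numbers of members called stayed within 1.5 times in 104 alternatives and moved further in 29. Without the filter on low counts 5 members were called at day 7 against control in all retinal wells, 4 at day 7 against day 3, and in microglia 2 at day 3 and 1 at day 7 against control. With single libraries as units the numbers were 5 at day 7 against control, and 1 in microglia at day 7 against control and 1 against day 3. With passing wells only, 1 was called in the joint class and 1 in microglia at day 7 against day 3. In wells with fewer than 2 lymphocyte marker transcripts, a setting chosen after seeing the data, 0 were called in either joint class comparison. Leaving out 1 pair gave 0 to 4 at day 7 against day 3 in all retinal wells, 0 to 3 in the joint class, 1 to 3 for ciliary body against lesion, 0 to 2, 0 to 1 and 0 to 2 in microglia (day 3 and day 7 against control, day 7 against day 3), and 0 to 1 in dendritic cells and in macrophages. Genes not called changed sign when 1 pair was left out: Adgre4 (-2.77 to 0.76, joint class, day 7 against day 3), Hp (-1.32 to 3.21), Ifitm6 (-0.26 to 1.19) and Plac8 (-1.43 to 0.08) for ciliary body against lesion, Lyz1 (-0.05 to 0.57, day 3 against control) and Ly6c2 (-1.15 to 0.02, day 7 against day 3) in microglia, Lyz1 in dendritic cells (-0.06 to 1.86), Lyz1 (-0.27 to 0.61, with -0.13 without the P2 pair of cornea) and Plac8 (-0.15 to 1.43) in macrophages and Emilin2 in Adgre4 wells (-0.46 to 0.44). Lyz1 in macrophages was also -0.03 with single libraries and -0.0 with passing wells only, and Emilin2 in Adgre4 wells -0.03 without the filter. The cause was not tested. The share of Ly6c2 or Chil3 wells at day 7 minus day 3 was -2.665 points unthinned and -3.209 to 3.259 without 1 library. For Adgre4 wells it was 0.1718 points thinned to 2000, 0.3088 with at least 2 transcripts and -0.613 to 0.4127 without 1 library, and at day 3 minus control -0.01442 to 1.216. With the name prefix as a replicate block the members called were 6, 2 and 2 in all retinal wells (day 3 and day 7 against control, day 7 against day 3), 3 in the joint class at day 7 against day 3 and 0 in microglia and dendritic cells. The differences between P1 and P2 gave correlations of 0.269, 0.146 and -0.057 between groups. These do not settle whether a prefix marks a shared batch, and the labels do not say what the prefixes mean. Adgre4 wells had 19 genes called with the pair as a block, 3 with DESeq2 and 0 with no replicate block. A side defined by at least 2 transcripts was not run, since 1 pair had enough wells. Without the corneal keratin wells, a setting chosen after seeing the data, the ciliary body minus cornea differences were 11.9 points for Ly6c2 or Chil3 and 2.88 for Adgre4. Chil3, Hp and Adgre4 rest on few transcripts, which limits the precision of their levels.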
